A study of Caenorhabditis elegans with 4 samples.

Results

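The transthyretin-like genes of Caenorhabditis elegans were examined in adults of the mutant glp-4. Members were all genes whose symbol in the annotation of the array platform is ttr followed by a number, taken from spots that the annotation assigns to a single gene. This gave 45 genes on 48 spots, out of 20140 features on the array, a feature being a named gene or a spot without a single gene. The other 14 ttr genes of the RefSeq gene table, ttr-33 among them, had no spot of their own under their name and were not analysed here.

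The data were 4 spotted arrays, each hybridised with mRNA of glp-4 adults (preps 1 to 4, in channel 2) and with RNA of a wild-type mixed reference (in channel 1). The glp-4 allele, the growth temperature, the age of the adults, what was mixed in the reference and whether the preps were separate cultures were stated in none of the sources used here. P-values therefore cover only the spread among the 4 preps, part or all of which may be technical. Values were deposited as log2 ratios: 1 stands for a transcript whose share of the RNA was 2-fold higher in the glp-4 adults, and -1 for one whose share was 2-fold lower. The ratio is read as glp-4 adults over reference, a direction that is likely but not certain: it was taken from the order of the channels and the wording of the descriptions, which name no dye, and if it were the other way every sign would turn.

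Transthyretin-like proteins form a large nematode protein family named for sequence similarity to vertebrate transthyretin, a carrier of thyroid hormone in the blood. Most carry a signal peptide and are thought to be secreted, and for most members no function is known. The best studied member, TTR-52, is secreted and binds phosphatidylserine on the surface of dying cells, which it links to the engulfment receptor CED-1. The product of glp-4 is a valyl-tRNA synthetase. The temperature-sensitive glp-4 mutant in wide use has almost no germ cells as an adult when raised at its restrictive temperature.

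Marker lists gave the state of the worms. Genes counted here as higher or lower passed the test and threshold given in the next paragraph. By that threshold 17% of all features were higher and 20.9% lower. All 14 germ line and oocyte genes tested were lower in glp-4 adults, with means between -4.84 and -2.16, and so were 29 of 30 major sperm protein genes, which mark sperm. Spot sequences were not analysed here, so whether the spots of this sperm family measured separate transcripts was not tested. Of 10 intestinal genes 9 were higher, and all 4 adult cuticle genes were higher (median 3.98). Of 8 genes listed for the epidermis and larval cuticle 6 were lower (list median -1.44), while 1, bli-1, was higher (mean 1.52). Among 8 neuronal genes 7 were lower (median -0.97). Of 7 tested muscle genes 6 were higher, with a list median between 1.11 and 1.86 on preps 1 to 3 and of 0.24 on prep 4, and of 4 tested pharynx genes 1 was lower. A ratio on a whole-worm array is relative to all other transcripts, and a different number of cells of a type cannot be told apart from a different amount of RNA per cell. The part that germ line content, the worm stages in the reference or any tissue's share had in the ttr ratios was not tested.

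The ttr genes differed in both directions between glp-4 adults and the reference, with ttr-14 far higher and ttr-50 lower on average. The mean log2 ratio of 22 of 45 members (48.9%) lay within 0.5 of 0, beside 54% of all features. Each mean log2 ratio was tested against 0 with the linear model of limma, two-sided, with Benjamini-Hochberg adjustment over all 19981 features that had a value on at least 3 arrays, and an adjusted p under 0.05 was the threshold. Of 45 ttr genes, all measured on 4 arrays, 13 were higher in glp-4 adults, 4 were lower and 28 did not pass. Together, 17 of 45 (37.8%) passed, beside 37.9% of all features tested, so the family as a whole passed about as often as the array. By direction, 28.9% of the ttr genes were higher, beside 17% of all features, and 8.9% were lower, beside 20.9%. At least 2-fold differences past the threshold were found for 5 higher members (7.83% of all features were higher by that rule) and 4 lower members (10.8% of all features were lower by that rule). The higher count depended on preps 3 and 4, whose array titles share a date: it was 8 of 45 without prep 3 and 7 of 45 without prep 4, while the share of all features called higher was 14.0% and 10.8% in these settings. With both arrays averaged to 1, 10 of 45 members were higher, beside 14.1% of all features, and ttr-15, ttr-18 and ttr-20 lost their calls (adjusted p = 0.0815, 0.114 and 0.0630 in limma).

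The family median was 0.25, beside 0.00 for all features, and 31 of 45 members (68.9%) had a mean above 0, beside 50.2% of all features. On the single arrays of preps 1 to 4, the family median was 0.12, 0.18, 0.40 and 0.36, while that of all features was 0.08, -0.04, -0.07 and -0.03. Prep 1 was thus the array on which the family stood closest to the rest, and without it the family median was 0.42. A small positive ratio was also common elsewhere on the array: 1063 chemoreceptor genes, which are active in few neurons each, had a median of 0.38, and 84.6% of them had a mean above 0. Whether dim spots have a part in the small positive ratios of ttr genes was not tested, since no signal intensities were analysed here.

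**Figure D1:**
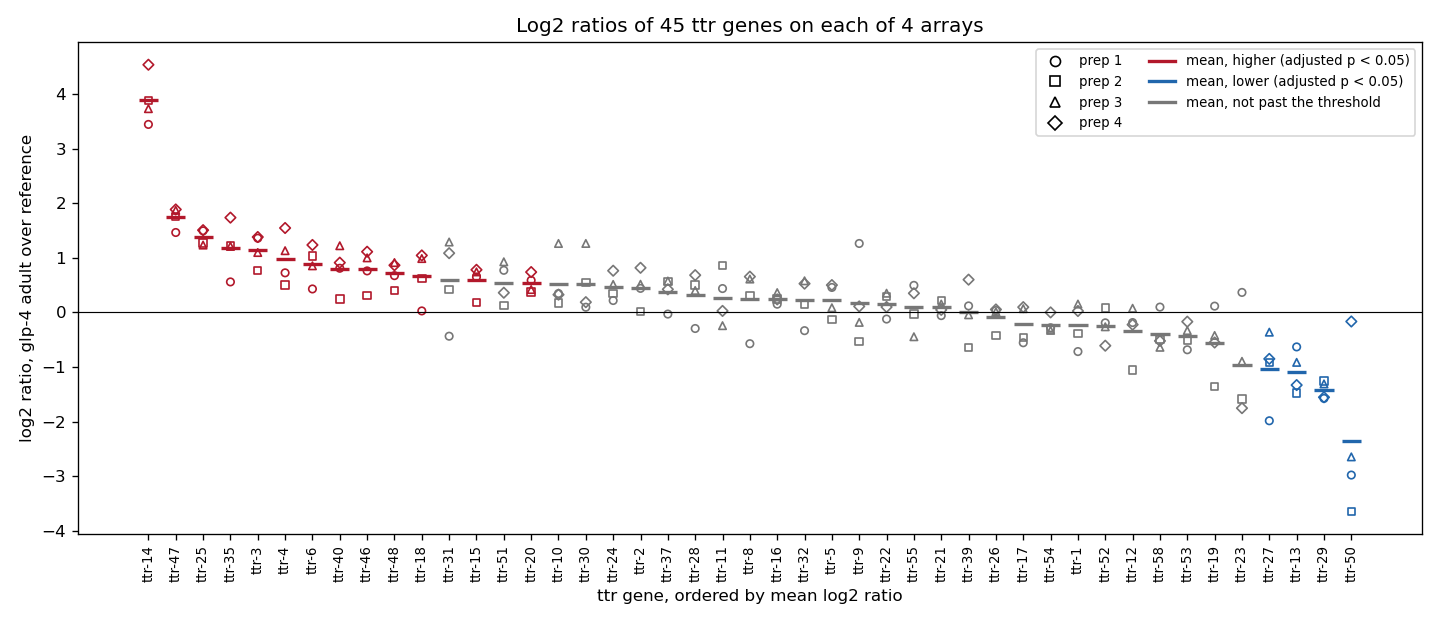
The log2 ratio of each of the 45 ttr genes (horizontal axis, ordered by mean) on the 4 arrays (vertical axis, glp-4 adults over reference), with a symbol per prep and a bar for the mean; red marks the 13 higher, blue the 4 lower and grey the 28 members not past the threshold. ttr-14 stands alone at the top, and the values of ttr-50 at the bottom range from -3.64 to -0.16.

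The gene with the highest ratio in the family was ttr-14 (T05A10.3). Its log2 ratios on preps 1 to 4 were 3.44, 3.88, 3.73 and 4.54. All 4 arrays lay far above 0, and above every value of every other ttr gene. The mean of 3.90 ± 0.46 (SD, n = 4 preps) corresponds to a 14.9-fold higher share in glp-4 adults, with an adjusted p of 7.83e-05 in limma, and it was the 30th highest mean of the 19981 features tested. Both spots of the gene gave this result, with means of 4.00 ± 0.44 and 3.79 ± 0.51.

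After ttr-14, ttr-47 (H14N18.3) was next, with 1.46, 1.75, 1.87 and 1.89 on preps 1 to 4. These values differed little from prep to prep, and the mean of 1.74 ± 0.20 (3.35-fold higher, adjusted p = 0.000335 in limma) was the 560th highest of all features. The gene ttr-25 (Y51A2D.10) had 1.50, 1.27, 1.23 and 1.51 on preps 1 to 4, the smallest SD over preps among the members that were at least 2-fold different. Its mean was 1.38 ± 0.14 (2.60-fold higher, adjusted p = 0.000686). The gaps in the order from ttr-14 to ttr-47 exceeded the spread between preps, since the values of both genes did not overlap, whereas ttr-47 and ttr-25 overlapped at 1.46 to 1.51.

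The genes ttr-35 and ttr-3 completed the group of members at least 2-fold higher. For ttr-35 (F22A3.2) the values were 0.56, 1.22, 1.21 and 1.74 on preps 1 to 4, lowest on prep 1 and highest on prep 4. Its mean was 1.18 ± 0.48 (2.27-fold higher, adjusted p = 0.00492 in limma). For ttr-3 (K03H1.3) the values were 1.36, 0.77, 1.10 and 1.38, lowest on prep 2. Its mean was 1.15 ± 0.29 (2.22-fold higher, adjusted p = 0.00220), so the values of ttr-35 and ttr-3 overlapped.

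The other 8 higher members had means between 0.53 and 0.98, all above 0 on every array. The highest of these, ttr-4 (F40F12.1), is a pseudogene in the RefSeq table, and it had 0.73, 0.50, 1.13 and 1.55 on preps 1 to 4 (mean 0.98 ± 0.46, adjusted p = 0.00958 in limma). The gene ttr-6 (T28B4.3) had 0.43, 1.03, 0.85 and 1.24 (mean 0.89 ± 0.34, adjusted p = 0.00803). Both passed in all alternative settings. The remaining 6 were ttr-40 (0.80 ± 0.41), ttr-46 (0.80 ± 0.35), ttr-48 (0.71 ± 0.23), ttr-18 (0.67 ± 0.47), ttr-15 (0.59 ± 0.28) and ttr-20 (0.53 ± 0.17). Each of these lost its call without at least 1 prep: without prep 4 their adjusted p in limma lay between 0.0520 (ttr-48) and 0.139 (ttr-18). On prep 1, ttr-18 was at 0.03, against 0.62 to 1.04 on the other preps.

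The 4 lower members were ttr-50, ttr-29, ttr-13 and ttr-27. For ttr-50 (F58B3.9) the log2 ratios were -2.98, -3.64, -2.64 and -0.16 on preps 1 to 4. Preps 1 to 3 lay far below 0 and prep 4 near 0, which gave the largest SD of the family. The mean of -2.36 ± 1.52 (5.12-fold lower, adjusted p = 0.0114 in limma) was the 325th lowest of all features, and without prep 4 the mean was -3.09 (adjusted p = 0.000980).

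The values of ttr-29 (R90.4) were close together, at -1.57, -1.25, -1.31 and -1.55 on preps 1 to 4. Its mean was -1.42 ± 0.16 (2.68-fold lower, adjusted p = 0.000647 in limma). The gene ttr-13 (Y44A6B.4) had -0.63, -1.47, -0.91 and -1.33, with a mean of -1.09 ± 0.39 (2.12-fold lower, adjusted p = 0.00436). Its values were below 0 on every array and overlapped with those of ttr-29. The gene ttr-27 (R90.2) had -1.98, -0.91, -0.36 and -0.85, lowest on prep 1 and nearest to 0 on prep 3. Its mean was -1.03 ± 0.68 (2.04-fold lower, adjusted p = 0.0211), and its adjusted p was 0.0517 with prep 2 left out and 0.0524 with prep 4 left out, both past 0.05.

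The 28 members not past the threshold had means between -0.97 and 0.59, 18 above and 10 below 0, and 22 of them lay within 0.5 of 0. At the lower end, ttr-23 (T21C9.8) had 0.37 on prep 1, against -1.58, -0.89 and -1.75 on preps 2 to 4 (mean -0.97 ± 0.96, adjusted p = 0.0632 in limma). Without prep 1 its mean was -1.41 and it passed (adjusted p = 0.00666). At the upper end, ttr-31 (F58A3.5) was the reverse, with -0.43 on prep 1 against 0.43, 1.29 and 1.09 on preps 2 to 4 (mean 0.59 ± 0.78, adjusted p = 0.145), and without prep 1 it passed with a mean of 0.93 (adjusted p = 0.0252). The third largest SD of the family, after ttr-50 and ttr-23, was that of ttr-9 (C33A12.15), with 1.26 on prep 1 and -0.53, -0.18 and 0.11 on preps 2 to 4 (mean 0.17 ± 0.78). Without prep 1 its mean was -0.20. The gene ttr-51 (JC8.8) lay next to the threshold, with a mean of 0.55 ± 0.37 and an adjusted p of 0.0532.

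Prep 1 was set apart in this way for several members. Of the 45 genes, 10 had a sign on prep 1 that differed from the sign on the other 3 arrays, 3 of them above 0 on prep 1 alone (ttr-19, ttr-23, ttr-58) and 7 below 0 on prep 1 alone (ttr-8, ttr-21, ttr-22, ttr-28, ttr-31, ttr-32, ttr-37). The same count was 3 for prep 2, 2 for prep 3 and 1 for prep 4. No such count was made over all features, so whether prep 1 also stood apart there is not known. Some of the 10 values on prep 1 were near 0, as for ttr-21 (-0.06) and ttr-58 (0.10). For ttr-37 the sign is that of the average of 2 spots (-0.03 on prep 1), and neither spot changed sign between arrays. In 24 genes all 4 arrays had the same sign, 19 of them above 0 (42.2% of the members, beside 26.7% of all features with 4 values) and 5 below 0 (11.1%, beside 28.8%). The sign was split 2 to 2 in 5 genes. Over the 45 members, the Pearson correlation between arrays was lowest for preps 1 and 4 (0.700) and highest for preps 2 and 3 (0.910). Without ttr-14 these were 0.567 and 0.874. The correlations describe the arrays across genes, which are not independent replicates, and all arrays share the reference. The means of the members had an SD of 0.94 between genes, and of 0.66 without ttr-14 and ttr-50, while the median SD of a member over the preps was 0.37. Over all features these were 0.91 between genes and 0.35 over preps.

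**Figure D2:**
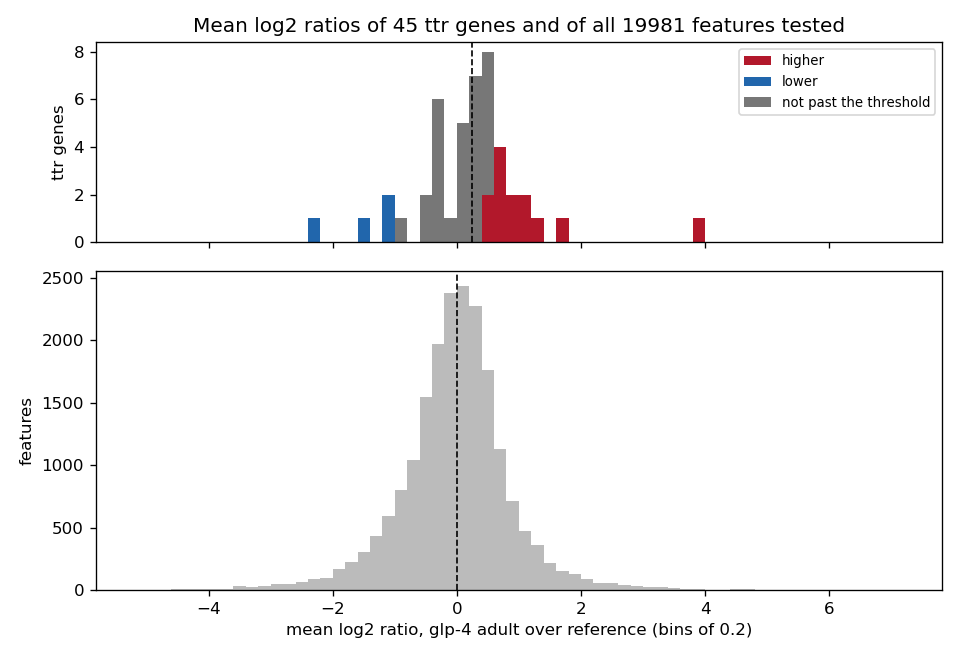
Number of ttr genes (top, coloured by the result of the test) and of all features tested (bottom) in bins of 0.2 of the mean log2 ratio, glp-4 adults over reference; dashed lines mark the medians. The 45 ttr genes centre at 0.25 and all features at 0.00, and ttr-14 lies at 3.90.

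The gene for the bridging protein of dying cells, ttr-52 (F11F1.7), had -0.19, 0.08, -0.26 and -0.61 on preps 1 to 4. These values lay on both sides of 0 and did not pass the threshold (mean -0.25 ± 0.28, adjusted p = 0.277 in limma). Likewise, ttr-11 (F46B3.3), for which no role is given here, had 0.44, 0.86, -0.24 and 0.03 (mean 0.27 ± 0.48, adjusted p = 0.335), also with values on both sides of 0.

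Of 15 listed genes that act in the recognition and engulfment of dying cells, 12 were tested, and 8 of these did not pass. The 2 higher genes were 16.7% of those tested, beside 17% of all features, and the 2 lower genes also 16.7%, beside 20.9%, so the list was called about as often as the array, and its median was -0.06, beside 0.00. The integrin alpha gene ina-1, whose product serves as an engulfment receptor, had 0.51, 1.22, 1.17 and 1.76 on preps 1 to 4 (mean 1.17 ± 0.51, 2.24-fold higher, adjusted p = 0.00593 in limma). The scramblase gene scrm-1, which acts in the exposure of phosphatidylserine, had 1.11, 0.81, 0.65 and 0.45 (mean 0.76 ± 0.28, adjusted p = 0.0115).

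The lower genes of this list were psr-1 and ced-12. The gene psr-1, which encodes a phosphatidylserine receptor, had -0.98, -0.93, -0.69 and -0.57 on preps 1 to 4 (mean -0.79 ± 0.19, 1.73-fold lower, adjusted p = 0.00673 in limma). The gene ced-12, whose product acts with CED-5 in the activation of the Rac GTPase, had -0.77, -0.95, -0.26 and -0.70 (mean -0.67 ± 0.29, adjusted p = 0.0201), and it did not pass without prep 1, 2 or 4 (adjusted p = 0.0590, 0.0646 and 0.0676). The receptor gene ced-1 had -0.43, -0.11, 0.17 and 0.00, on both sides of 0 (mean -0.09 ± 0.25, adjusted p = 0.664). The gene nrf-5, whose secreted lipid-binding product acts with TTR-52, had 0.16, 1.01, 0.68 and 0.35 (mean 0.55 ± 0.38, adjusted p = 0.0531) and lay just outside the threshold.

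Several ttr genes lie next to each other on the chromosome, with no other coding gene or pseudogene starting between them in the RefSeq table. There were 6 such groups among the measured members, with 15 genes. Neighbours were about as far apart in their ratios as other members: over 9 neighbouring pairs, the median absolute difference of the mean log2 ratios was 0.70, beside 0.68 over the 981 other pairs of members. These pairs share genes, so they are given as a description.

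The widest gap was between ttr-28 and ttr-29, in the group of ttr-27, ttr-28 and ttr-29 (R90.2, R90.3 and R90.4). While the outer genes ttr-27 and ttr-29 were lower, the middle gene ttr-28 had -0.29, 0.50, 0.40 and 0.68 on preps 1 to 4 (mean 0.32 ± 0.43, adjusted p = 0.229 in limma). On every array ttr-28 was above both neighbours, by 1.75 ± 0.39 over ttr-29 and by 1.35 ± 0.41 over ttr-27 (SD, n = 4 preps). In the group of ttr-24, ttr-25 and ttr-26, the middle gene was again the highest on every array: ttr-25 exceeded ttr-24 (0.46 ± 0.24) by 0.92 ± 0.26 and ttr-26 (-0.08 ± 0.23) by 1.46 ± 0.19. In the group of ttr-3, ttr-2 and ttr-1, the ratio fell in that order on every array, with means of 1.15 ± 0.29, 0.45 ± 0.33 and -0.23 ± 0.40.

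The remaining groups were closer. The genes ttr-16 (0.25 ± 0.09) and ttr-17 (-0.21 ± 0.34) differed by 0.46 ± 0.29, ttr-54 (-0.23 ± 0.15) and ttr-53 (-0.42 ± 0.22) by 0.20 ± 0.16, and ttr-8 (0.25 ± 0.57) and ttr-32 (0.23 ± 0.42) by 0.02 ± 0.18. The sign of the difference was the same on all 4 arrays for 8 of the 9 pairs, the exception being ttr-8 and ttr-32. With 4 preps, the smallest p of an exact sign-permutation test (two-sided) is 0.125, which these 8 pairs reached, so no pair could pass a threshold of 0.05. The sequences of the spots were not analysed here, and whether a spot also bound transcripts of related members was not tested.

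**Figure D3:**
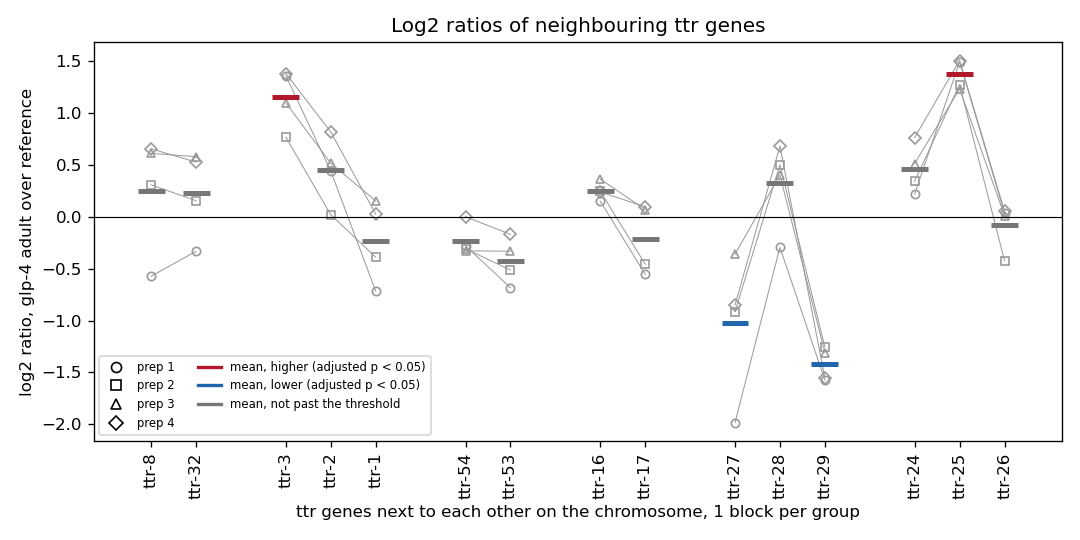
Log2 ratios (vertical axis, glp-4 adults over reference) of the 15 ttr genes that neighbour another measured ttr gene, in 6 blocks in chromosome order; symbols are the 4 preps, thin lines join the values of a prep and bars are means. In the blocks of ttr-27 to ttr-29 and of ttr-24 to ttr-26 the middle gene is highest on all 4 preps.

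For 3 members the array held 2 spots, which allowed a check within a gene. The spots of ttr-14 had means 0.21 apart and both lay above 3 on every array. For ttr-10 (F19F10.4), 1 spot had 0.49, 0.09, 1.21 and 0.93 on preps 1 to 4 and the other 0.21, 0.25, 1.31 and -0.28. They were 0.31 apart on average and gave no constant order. The spots of ttr-37 (F21E9.3) disagreed: 1 had 0.63, 1.33, 1.18 and 0.93 on preps 1 to 4, all above 0, and the other -0.69, -0.20, -0.03 and -0.09, all below 0. Their means of 1.02 ± 0.31 and -0.25 ± 0.30 were 1.27 apart, with the same order on all 4 arrays. The average of both spots was 0.38 ± 0.28 and did not pass (adjusted p = 0.109 in limma), whereas the higher spot alone passed (adjusted p = 0.00414). The value of ttr-37 therefore depends on the spot, and which one reports the gene was not tested.

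**Figure D4:**
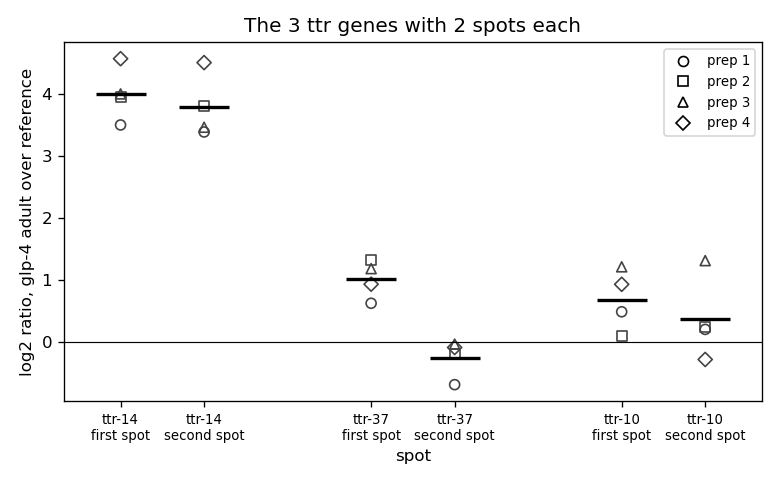
Log2 ratios (vertical axis, glp-4 adults over reference) of both spots of ttr-14, ttr-37 and ttr-10 on each of 4 preps (symbols) with their means (bars). The spots of ttr-37 have means of 1.02 and -0.25 and do not overlap.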

How the data were processed

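Per the labels, each of 4 arrays carried mRNA of glp-4 adults in channel 2 and wild-type mixed reference RNA in channel 1. The deposited log2 ratios came as 1 column per array over 21632 spots. That the values are log2 ratios was settled from the values: 100% of those below -2 were the log2 of a whole multiple of 0.001, within 1e-06. Array medians ranged from -0.0695 to 0.0759, and the values were used as deposited. The sources used here state no background correction, normalization, spot filter or dye. The number of arrays, 4, limits the precision. The signal over background of the spots is a further unknown.

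Genes were named from the platform annotation (1 gene for 16450 spots, several for 247, 4935 not listed), of which 16360 matched the RefSeq table of WBcel235 by gene number. Spots of 1 gene were averaged. limma 3.58.1 in R 4.3.3 tested the mean against 0 (lmFit, eBayes) for features on at least 3 arrays. The eBayes step draws the variance of each feature towards that of all features. A p-value thus does not rest on the spread of that gene alone, which matters for a wide spread such as that of ttr-50. No wild-type replicate exists beside the reference, so the spread of wild type is not part of the test. In a simulation on the real spread over 19981 features, 100 were changed by 1 and 100 by 2 on the log2 scale. Of these, 39 and 83 were called. With so few changed features the adjustment is stricter than in the real data, where 37.9% of features passed. These shares therefore do not give the sensitivity of the tests reported here. Tables were joined with Python 3.11.15 and pandas 2.3.3, and plots drawn with matplotlib 3.10.9. The members, lists and tests were chosen with earlier results of these data known. Members past the threshold and at least 2-fold different are given on every array, as are ttr-52 and ttr-11; the rest are grouped. ttr-4, ttr-6, ttr-31, ttr-51, ttr-10, ttr-37, nrf-5, the neighbouring genes, those with 1 deviating sign and the chemoreceptor genes were singled out after their values were seen. Alternatives covered centring, scaling, quantile normalization, missing values, 1 spot per gene, robust eBayes, each prep left out and, chosen after seeing the data, arrays of 1 title date (preps 3 and 4) averaged.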

Additional observations from a re-analysis of the deposited data

Results flagged for a closer look

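Among 57 genes tested for a single array far from the other 3, the 45 ttr and 12 engulfment genes, 3 ttr genes had one. Chance alone gives about 1 in 20, so 3 of 57 is about the number that chance gives. The log2 ratio of ttr-10 was 1.26 on prep 3, against 0.17 to 0.35 on the other preps. For ttr-26 it was -0.42 on prep 2, against 0.01 to 0.06. For ttr-54 it was 0.001 on prep 4, against -0.33 to -0.28. None of these 3 genes passed the threshold.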

How the results depend on the processing

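Of the 17 ttr genes past the threshold, 10 passed in all 11 alternatives (7 higher, 3 lower) and none changed sign. Some alternatives could move these calls little. Requiring a value on all 4 arrays, or robust eBayes, left the mean and SD of every ttr gene as they were. Using 1 spot per gene changed only members with 2 spots. How many of all features passed in every alternative was not counted. With each prep left out in turn, the higher ttr genes numbered 7 to 14 (main 13), the lower ones 3 to 5 and the family median ranged from 0.204 to 0.421 (main 0.252), highest without prep 1. Of all features, 10.8% to 14.6% were higher and 15.8% to 19.3% lower in these settings, beside 17% and 20.9% with all preps. With both arrays of 1 title date averaged, 10 ttr genes were higher and 4 lower, beside 14.1% and 18.3% of all features. Counting only at least 2-fold calls left 5 higher ttr genes, and 1 higher and 0 lower engulfment genes by limma. With a prep left out, the engulfment genes numbered 2 to 3 higher and 1 to 2 lower. The sign turned for genes near 0 when a prep was left out: ttr-26 ranged from -0.125 to 0.035, ttr-39 from -0.188 to 0.226, ttr-55 from -0.040 to 0.274, ttr-9 from -0.201 to 0.398, wah-1 from -0.031 to 0.186, ced-5 from -0.041 to 0.157, tat-1 from -0.185 to 0.103 and ced-1 from -0.182 to 0.016. With dates averaged, ttr-39 (-0.081), ced-5 (-0.026) and tat-1 (0.039) also turned. None of these passed, and the cause was not tested. Both scalings removed ttr-18 (adjusted p = 0.0556 and 0.0577 in limma) and added ttr-51. Median centring alone also added ttr-51 and kept ttr-18. The title date as a random block was not run, because limma estimates no correlation from 3 dates on 4 arrays. No paired analysis was possible because the arrays form 1 group.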
